A study of Mus musculus with 7 samples.

Results

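The glycolysis and hypoxia response module was followed here through 7 mouse single-cell libraries. It holds 32 of the 17784 genes with a row in any library, chosen by name for what their products do: 2 glucose transporters, 10 genes of the preparatory phase of glycolysis, 6 of the payoff phase, 5 that handle pyruvate and lactate, and 9 that are commonly induced when oxygen falls. All cells were C57BL/6. The primary oligodendrocyte progenitor cells (pOPC) came from brain and the primary cerebral pericytes (PC) from brain as well, while the mouse embryonic fibroblasts (MEF) came from embryos; these 3 populations were not transduced. MEF-2F and PC-2F were fibroblasts and pericytes that had received viruses carrying Olig2 and Sox10, and MEF-3F and PC-3F had received viruses carrying Olig2, Sox10 and Nkx6.2. The age of the animals, the promoter of the viruses, the time since transduction and any sorting of transduced cells are not given in the sources used here. Each population was 1 library, so no p-value can be given and every comparison sets 2 libraries side by side, not 2 conditions. The growth protocol gives pericytes, fibroblasts and progenitors a medium each and places the converted cells in the progenitor medium, so the factors and the medium cannot be told apart in any comparison with a donor. The oxygen level of the cultures is not given in the sources used here.

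Glycolysis splits glucose into pyruvate in the cytosol, and lactate dehydrogenase turns pyruvate into lactate or back. Several of its steps are carried out by enzymes that are encoded by more than 1 gene, and tissues differ in which of them they use: aldolase A is the general form and aldolase C the form of brain, lactate dehydrogenase A is the form of muscle and of fast glycolysis and B that of heart, enolase 1 is the general form and enolase 2 that of neurons. When oxygen falls, the hypoxia-inducible factors HIF-1α and HIF-2α escape prolyl hydroxylation, pair with ARNT and bind a short core sequence in the control regions of many of these same genes. Myelinating glia are known to use glycolysis and to pass lactate to axons.

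That core sequence, spelled ACGTG or GCGTG, was looked for in the 250 bases before the transcription starts of the genes, on both strands, in RefSeq promoter windows of the GRCm38.p6 mouse assembly. A CACGTG holds the first spelling on both strands and counts as 2 matches, and windows of 1 gene can overlap. Of the 32 genes 29 had a window; Slc2a3, Bnip3l and Ndrg1 had none. At least 1 match stood in 34 of their 42 windows (81.0%), against 38.6% of all 32851 windows, and in 26 of the 29 genes (89.7%) against 41.5% of all 27025 genes. At least 2 matches stood in 50% of the windows and in 16.7% of all windows. The match is a description of letters and not of a bound site. The genes were chosen as glycolysis and hypoxia genes, among which this sequence is known to occur. Both spellings contain CG, and the windows were not matched with all windows for base composition. What the higher share stems from was not tested. The windows below are those of the 2 isoform pairs that differed most between the libraries and of Bnip3, and capitals mark each match. Ldha is read from the plus strand of chr7:46845554-46845803 and Ldhb from the minus strand of chr6:142507958-142508207. Aldoa is read from the minus strand of chr7:126799255-126799504, Aldoc from the plus strand of chr11:78322823-78323072 and Bnip3 from the minus strand of chr7:138909507-138909756.
Ldha: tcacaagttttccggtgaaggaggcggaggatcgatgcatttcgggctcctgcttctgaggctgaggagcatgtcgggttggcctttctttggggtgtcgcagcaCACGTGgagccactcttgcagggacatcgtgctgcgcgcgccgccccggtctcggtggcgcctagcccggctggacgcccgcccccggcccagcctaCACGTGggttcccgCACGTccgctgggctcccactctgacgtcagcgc
Ldhb: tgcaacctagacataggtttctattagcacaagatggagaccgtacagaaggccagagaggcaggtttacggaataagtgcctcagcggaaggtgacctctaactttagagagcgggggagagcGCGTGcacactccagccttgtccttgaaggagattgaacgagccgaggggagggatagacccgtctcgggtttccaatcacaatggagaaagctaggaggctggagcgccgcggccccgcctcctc
Aldoa: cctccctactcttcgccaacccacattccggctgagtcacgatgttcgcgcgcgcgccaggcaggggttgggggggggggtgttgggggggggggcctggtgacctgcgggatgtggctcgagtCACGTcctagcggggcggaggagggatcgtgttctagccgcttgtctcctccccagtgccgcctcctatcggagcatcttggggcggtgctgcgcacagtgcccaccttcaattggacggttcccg
Aldoc: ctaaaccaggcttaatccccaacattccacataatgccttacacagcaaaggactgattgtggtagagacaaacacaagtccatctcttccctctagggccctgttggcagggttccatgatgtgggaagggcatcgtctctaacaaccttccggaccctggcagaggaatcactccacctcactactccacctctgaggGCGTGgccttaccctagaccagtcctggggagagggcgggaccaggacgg
Bnip3: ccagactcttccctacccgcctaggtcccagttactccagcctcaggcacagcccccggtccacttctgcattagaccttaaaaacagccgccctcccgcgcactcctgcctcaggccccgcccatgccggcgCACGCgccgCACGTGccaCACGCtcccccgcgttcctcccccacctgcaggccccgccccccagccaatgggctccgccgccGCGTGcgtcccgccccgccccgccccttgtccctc
The Ldha and Bnip3 windows shown held 5 matches each, and the Ldhb, Aldoa and Aldoc windows shown held 1 each. Of the windows not shown, that of Ldha held 1 match, those of Aldoa 1 and 0, and that of Aldoc 1.

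A level below is the unique molecular identifiers (UMIs) of a gene summed over the cells of a library and divided by the library total, as CPM, the usual counts-per-million scale. Ranges in parentheses are exact 95% intervals, Poisson for a level, conditional binomial for a ratio and Clopper-Pearson for a share, and they cover counting error only. The libraries held 82 (MEF-2F) to 290 (PC) cells, 229745 to 1291930 UMIs and a median of 1866 (MEF-3F) to 6258 (PC-2F) UMIs per cell, and no barcode occurred in more than 1 library. For a gene at 0 a floor of 3 UMIs was used, which is 13.1 CPM in MEF-2F and 2.32 CPM in PC. The 95% interval of 0 UMIs reaches further, to 16.1 CPM in MEF-2F and 2.86 CPM in PC. A fold given as "at least" sets that floor against the point level of the other library and is not a 95% limit. Fewer cells of a type and less RNA per cell cannot be told apart in these sums. Of 10 progenitor markers, 9 had UMIs in pOPC and in each of the 4 converted libraries, summing to 7929 CPM in pOPC and to 1232 to 2925 CPM in the converted ones, against 165 CPM in MEF and 144 CPM in PC. The library labelled pericytes had no UMI of the mural genes Rgs5, Kcnj8 and Abcc9, with Pdgfrb at 344 CPM, and MEF held all 6 macrophage markers, summing to 92.5 CPM. A 3′ tag of the transduced Sox10 cannot separate vector from endogenous transcript.

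Taken as a sum, the 17 glycolytic enzymes were highest in the donor libraries and lowest in MEF-2F. Their level was 3598 CPM (3452 to 3749) in pOPC, 4381 CPM (4237 to 4530.0) in MEF and 4412 CPM (4298 to 4528) in PC. Among the converted libraries PC-2F had 3749 CPM (3640.2 to 3860.3), PC-3F had 3304 CPM (3164 to 3448), MEF-2F had 2219.9 CPM (2031 to 2421) and MEF-3F had 3875 CPM (3697 to 4059). As whole libraries, each converted one thus lay below its donor with intervals that did not overlap, and the 2 donors did not differ beyond counting error. The barcodes of PC and of MEF-3F fall into 2 blocks each, and this did not hold for every block. The first PC block was at 3648 CPM (3358 to 3957), overlapping PC-2F and PC-3F, and the second at 4519.6 CPM (4397 to 4645). The second MEF-3F block was at 4207 CPM (3999.5 to 4422), overlapping MEF, and the first at 2524 CPM (2207 to 2874). The 9 hypoxia genes summed to 384 CPM (338 to 436) in pOPC, 545 CPM (505 to 587) in PC, 649.9 CPM (605 to 697) in PC-2F, 651 CPM (589 to 717) in PC-3F, 795 CPM (734 to 860.2) in MEF, 572 CPM (505 to 646) in MEF-3F and 740.0 CPM (633 to 859.9) in MEF-2F. As whole libraries, the pOPC level was below all 6 others. This did not hold for the first PC block, at 382 CPM (292 to 491), while the second was at 568 CPM (525 to 613). Of these sums P4ha1 and P4ha2 held 33.2 and 0 CPM in pOPC, 173 and 68.9 CPM in PC, and 275 and 177 CPM in MEF.

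**Figure D1:**
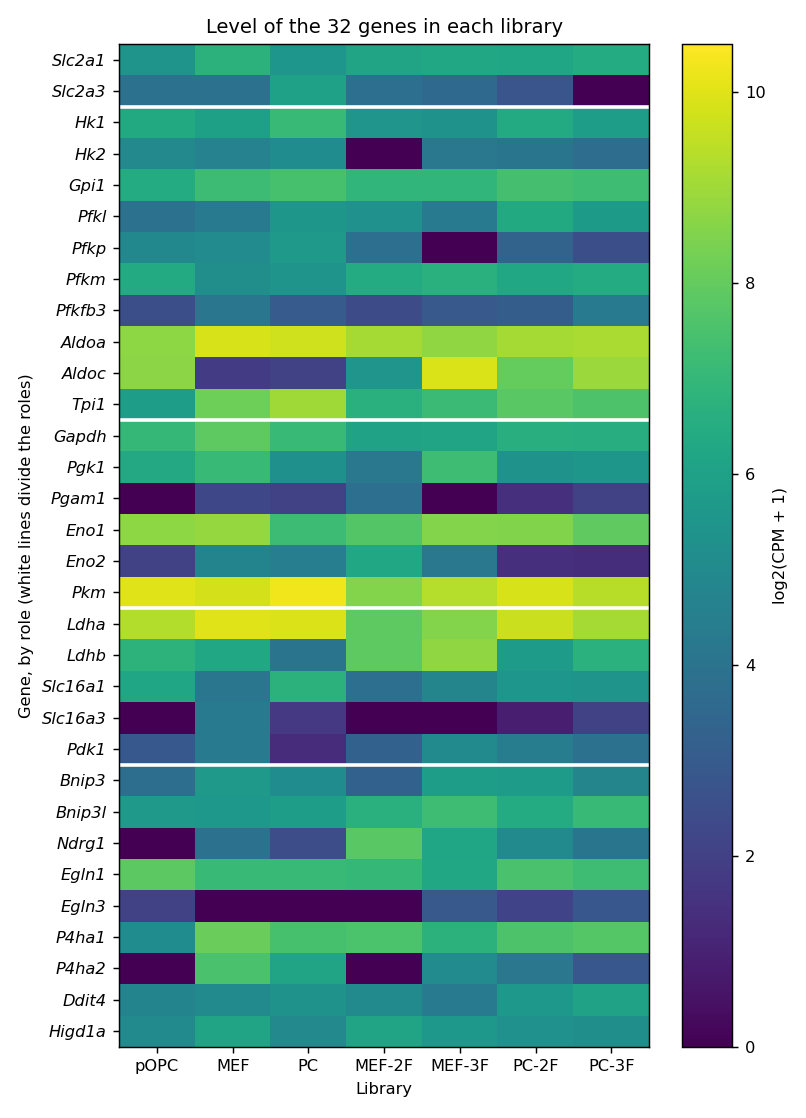
Level of each of the 32 genes (rows, grouped by role from glucose transporters at the top to hypoxia response at the bottom) in each of the 7 libraries (columns), as log2(CPM + 1). Aldoa, Eno1, Pkm and Ldha are bright in most columns, and Aldoc is dark in MEF and PC (2.53 and 3.10 CPM) and bright in pOPC, MEF-3F and PC-3F (411 to 947 CPM).

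To count as measured in a comparison a gene needed 10 UMIs and 20 CPM in 1 of the 2 libraries, and to be called higher or lower it needed a ratio of 2-fold or beyond whose interval left out 1. In MEF-2F against MEF, 24 of the 32 genes were measured, of which 6 (25%) were higher and 9 (37.5%) lower, against 19.0% and 14.6% of all 7542 measured genes. MEF-3F against MEF gave 5 of 26 higher (19.2%) and 7 lower (26.9%), against 23.6% and 12.7%. For PC-2F against PC 5 of 28 were higher (17.9%) and 7 lower (25%), against 17.7% and 12.8%. PC-3F against PC gave 4 of 26 higher (15.4%) and 8 lower (30.8%), against 18.8% and 15%. As counted here, the lower shares were above those of all genes in all 4 comparisons, and the higher shares were above them in 2 and below them in 1 fibroblast and 1 pericyte comparison. This balance depended on the cells used. The barcodes of PC, MEF-2F and MEF-3F fall into 2 blocks each, and with the first PC block (39 cells) alone as the donor PC-3F had 8 genes higher and 4 lower and PC-2F had 4 lower; with equal weight per cell PC-3F had 7 higher. With cells thinned to 1000 UMIs MEF-2F had 2 higher and 5 lower, MEF-3F had 4 lower and PC-2F had 3 higher. The median log2 ratio of the measured members was -0.58, -0.45, 0.14 and -0.23 in the order given, against 0.05, 0.27, 0.05 and 0.05 for all measured genes. Both comparisons with a donor share that donor library. Scaling by a trimmed mean in place of the total moved every log2 ratio by -0.29 in MEF-2F and by -0.28 in MEF-3F against MEF, and by -0.03 and -0.06 in the pericyte comparisons.

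Over the 4 comparisons 22 of the 28 genes measured in any of them were called at least once, against 60.5% of the 9707 genes measured in any. Of these, 8 were higher somewhere, against 37.2% of all genes, 16 were lower somewhere, against 26.4%, and 2, Eno1 and Eno2, were higher in 1 comparison and lower in another. The same call in all 4 comparisons was given to 4 genes, against 5.27% of all genes: Aldoc and Ldhb were higher and Tpi1 and P4ha2 lower than in the donor. Measured but never called were Slc2a1, Gpi1, Pfkl, Egln1, Ddit4 and Higd1a. Pfkfb3, Pgam1, Slc16a3 and Egln3 were too low to be measured in any of them, with no level over 19.0 CPM.

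**Figure D2:**
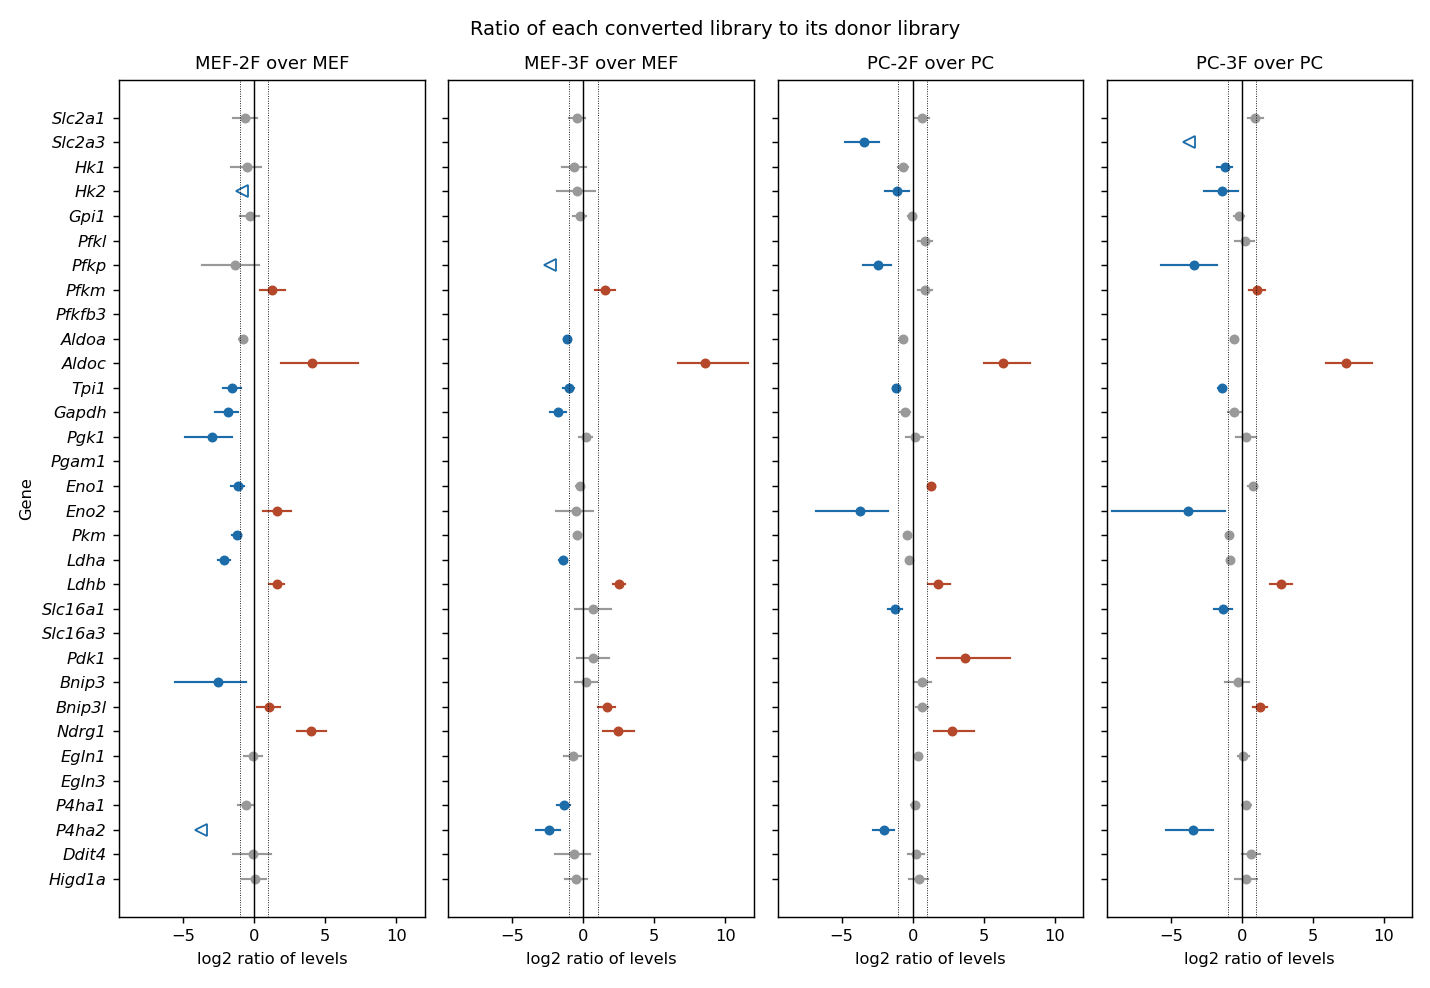
Log2 ratio of the level in each converted library to that in its donor library (x axis) for each measured gene (y axis), with exact 95% intervals that cover counting error only. Red genes were higher, blue lower and grey neither; open triangles are bounds for genes with 0 UMIs in the converted library, and dotted lines mark 2-fold. Aldoc and Ldhb lie right of 0 and Tpi1 and P4ha2 left of 0 in all 4 panels.

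Glucose enters through the transporters GLUT1 (Slc2a1) and GLUT3 (Slc2a3). The Slc2a1 level was 42.7 CPM in pOPC, 44.9 in PC, 70.9 in PC-2F, 86.7 in PC-3F, 106 in MEF, 78.6 in MEF-3F and 69.6 in MEF-2F, so the converted libraries lay between 69.6 and 86.7 CPM whatever the donor. None of these was 2-fold from its donor. Slc2a3 was at 63.5 CPM in PC and at 14.2 CPM or less in all others. It was 10.9-fold lower (5.04 to 27.9) in PC-2F than in PC, and at least 13.4-fold lower in PC-3F, where it had no UMI.

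Among the kinases of the preparatory phase the muscle-type phosphofructokinase Pfkm was called higher than the donor in 3 of the 4 converted libraries. The platelet-type Pfkp and hexokinase 2 were each called lower in 3 of the 4. Pfkm stood at 85.4 CPM in pOPC, 42.6 in PC, 78.4 in PC-2F, 88.2 in PC-3F, 35.5 in MEF, 100.4 in MEF-3F and 87.1 in MEF-2F; the 5 libraries of progenitors and converted cells lay above both donors. The ratio to the donor was 2.45-fold (1.31 to 4.52) in MEF-2F, 2.83-fold (1.73 to 4.70) in MEF-3F and 2.07-fold (1.4 to 3.06) in PC-3F, and it did not reach 2-fold in PC-2F. For Pfkp the donor levels were 32.9 CPM in MEF and 49.5 CPM in PC and those of the converted libraries 13.1 CPM or less; it was lower in 3 of the 4, by at least 5.03-fold in MEF-3F, where it had no UMI, and by 5.40-fold (2.82 to 11.4) in PC-2F. Against pOPC, at 28.5 CPM, Pfkp was lower in 3 of the 4 as well. The liver-type Pfkl ranged from 14.2 CPM in pOPC to 82.6 CPM in PC-2F and was higher than in pOPC in both pericyte-derived libraries.

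Hexokinase 1 (Hk1), which phosphorylates glucose at the mitochondrial surface, was at 82.2 CPM in pOPC, 133 in PC, 84.3 in PC-2F, 58.3 in PC-3F, 60.8 in MEF, 39.3 in MEF-3F and 43.5 in MEF-2F. Its level was 2.28-fold lower (1.59 to 3.35) in PC-3F than in PC, and the other 3 comparisons with a donor gave no call. Hk2, the inducible form, was at most 33.3 CPM and was called lower than the donor in 3 of 4 libraries. In MEF-2F it was lower by at least 1.84-fold from 0 UMIs against 19, a bound that does not itself reach 2-fold. In PC-2F the call was lost with either PC barcode block alone as the donor, with log2 ratios of -1.71 and -0.95. Glucose-6-phosphate isomerase (Gpi1) had the narrowest range of the preparatory genes when taken as a fold of the highest over the lowest level. It was at 87.0 CPM in pOPC, 171 in PC, 168 in PC-2F, 151 in PC-3F, 144 in MEF, 120.1 in MEF-3F and 118 in MEF-2F. No comparison with a donor or with pOPC gave a call for it.

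The aldolases showed the widest difference of the module. Aldoa (chr7:126795234-126800751, minus strand) and Aldoc (chr11:78322968-78327781, plus strand; GENCODE annotation of GRCm38) encode enzymes that cleave fructose bisphosphate. Aldoa was at 414 CPM in pOPC, 858 in PC, 535 in PC-2F, 570.4 in PC-3F, 935 in MEF, 430.1 in MEF-3F and 548 in MEF-2F. Aldoc was at 411 CPM (363 to 464) in pOPC, 3.10 CPM (0.844 to 7.93) in PC, 255 CPM (227 to 286) in PC-2F, 487 CPM (434 to 544) in PC-3F, 2.53 CPM (0.307 to 9.15) in MEF, 947 CPM (860.4 to 1041) in MEF-3F and 43.5 CPM (20.9 to 80.0) in MEF-2F. Both donors were thus near 0, and the 4 converted libraries spread over a range of more than an order of magnitude with MEF-3F above pOPC. Relative to the donor Aldoc was 17.2-fold higher (3.66 to 161) in MEF-2F, 374-fold (103 to 3098) in MEF-3F, 82.4-fold (31.9 to 305) in PC-2F and 157-fold (60.8 to 581) in PC-3F, each from 2 or 4 donor UMIs. Aldoa was lower than its donor by 2-fold or more only in MEF-3F among these 4 comparisons, by 2.17-fold (1.86 to 2.56).

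Aldoc made up 49.8% (45.4 to 54.2) of the UMIs of the aldolase pair in pOPC, 0.270% (0.0327 to 0.973) in MEF and 0.36% (0.0981 to 0.918) in PC. Its share was 32.3% (29.3 to 35.4) in PC-2F, 46.1% (42.2 to 49.9) in PC-3F, 7.35% (3.58 to 13.1) in MEF-2F and 68.8% (65.0 to 72.4) in MEF-3F. The share in PC-3F and that in pOPC had overlapping intervals, MEF-3F lay above pOPC, and MEF-2F and PC-2F lay below it. With each cell thinned to 1000 UMIs, an Aldoc UMI was seen in 39.7% of pOPC cells, 0.375% of PC, 12.9% of PC-2F, 30.8% of PC-3F, 0.775% of MEF, 5.33% of MEF-2F and 50.8% of MEF-3F cells. Unthinned the shares were, in the same order, 67.9%, 0.690%, 41.3%, 56.5%, 1.53%, 11% and 68.3%, and the donor shares, at median depths of 3775 UMIs in PC and 4646 UMIs in MEF, stand for background. In MEF-3F 61 cells had UMIs of both aldolases, 49 of Aldoc alone and 13 of Aldoa alone; in pOPC the numbers were 71, 20 and 28, and in MEF 2, 0 and 119.

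Aldoc is also an astrocyte gene. Of 5 astrocyte markers 2 had UMIs in pOPC, 3 in PC-2F, 1 in PC-3F, 1 in MEF-2F and 4 in MEF-3F; they summed to 247, 5.84, 20.5, 131 and 229 CPM, and to 21.5 CPM in MEF and 0 in PC. Most of that was the glutamate transporter Slc1a3, at 196 CPM in pOPC, 131 in MEF-2F and 194 in MEF-3F, which progenitors also express. Aqp4 was at 0 in all libraries but MEF-3F (13.1 CPM), and Gfap at 0 in all but MEF-3F (13.1 CPM) and PC-2F (3.34 CPM). The part of astrocyte-like cells in the Aldoc levels was not tested.

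Triosephosphate isomerase (Tpi1, chr6:124810586-124814296, minus strand), which interconverts the trioses that aldolase makes, was lower than the donor in all 4 libraries. Tpi1 was at 56.9 CPM in pOPC, 508 in PC, 224 in PC-2F, 189 in PC-3F, 291 in MEF, 142 in MEF-3F and 100.1 in MEF-2F. Every converted level lay between that of pOPC and that of its donor. Tpi1 was lower by 2.91-fold (1.89 to 4.68) in MEF-2F, 2.05-fold (1.55 to 2.75) in MEF-3F, 2.26-fold (1.96 to 2.62) in PC-2F and 2.69-fold (2.21 to 3.29) in PC-3F. It was still higher than in pOPC in MEF-3F, PC-2F and PC-3F, by 2.49-fold to 3.94-fold.

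In the payoff phase, which returns ATP and ends with pyruvate, 4 of 5 measured genes were lower in MEF-2F than in MEF, against the 14.6% of all genes. Of these 4, Pgk1 and Pkm kept the call with either barcode block of MEF-2F alone, while Gapdh lost it with the second (log2 ratio -0.83) and Eno1 with the first (-0.88). Gapdh was at 125 CPM in pOPC, 135 in PC, 94.3 in PC-2F, 93.0 in PC-3F, 237 in MEF, 69.9 in MEF-3F and 65.3 in MEF-2F. Relative to MEF it was lower by a factor of 3.63 (2.14 to 6.61) in MEF-2F and 3.39 (2.32 to 5.10) in MEF-3F, but its level is uncertain: 82.9% of the 50-base stretches of its last 300 bases also occur in 98 other genes, most of them copies of it, and reads shared with copies may have been dropped or split. Phosphoglycerate kinase (Pgk1) was at 79.1 CPM in pOPC, 37.2 in PC, 40.9 in PC-2F, 45.7 in PC-3F, 133 in MEF, 151 in MEF-3F and 17.4 in MEF-2F. MEF-2F, with 4 UMIs of Pgk1, was 7.64-fold below MEF (2.90 to 28.6), and MEF-3F was 8.65-fold above MEF-2F (3.23 to 32.6). The copy Pgk1-rs7 was at 20.1 CPM in PC and at 8.71 CPM or less elsewhere.

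Pyruvate kinase (Pkm), the last step, was the highest gene of the module in pOPC and PC, with 1025 CPM in pOPC, 1229 in PC, 926 in PC-2F, 654 in PC-3F, 893 in MEF, 639.6 in MEF-3F and 379 in MEF-2F. All 4 converted levels were below both the donor and pOPC, and only that of MEF-2F passed 2-fold, at 2.36-fold (1.89 to 2.98) below MEF and 2.71-fold (2.16 to 3.43) below pOPC. A 3′ tag does not separate the 2 splice forms of Pkm. Pgam1 had at most 13.1 CPM in any library, and its copy Pgam1-ps2 at most 10.1 CPM, so that step was not resolved.

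The enolases differed in direction between MEF-2F and PC-2F, each set against its donor. Eno1 (chr4:150236721-150248879) was at 422 CPM in pOPC, 146 in PC, 362 in PC-2F, 246 in PC-3F, 451 in MEF, 375 in MEF-3F and 205 in MEF-2F. It was 2.20-fold lower (1.62 to 3.06) in MEF-2F than in MEF and 2.49-fold higher (2.09 to 2.97) in PC-2F than in PC; the difference between these ratios was not tested. Eno1 shares 90.0% of the 50-base stretches of its last 300 bases with Eno1b, so its level is uncertain too. The neuronal Eno2 (chr6:124760053-124769673) was at 3.16 CPM in pOPC, 21.7 in PC, 1.67 in PC-2F, 1.58 in PC-3F, 25.3 in MEF, 17.5 in MEF-3F and 78.3 in MEF-2F. Eno2 made up 27.7% (17.3 to 40.2) of the enolase UMIs in MEF-2F and 13.0% (8.79 to 18.2) in PC, against 0.743% (0.0902 to 2.66) in pOPC, 0.459% (0.0556 to 1.65) in PC-2F and 0.637% (0.0161 to 3.5) in PC-3F. In MEF-2F, with 18 UMIs of Eno2, the level was 3.09-fold above MEF (1.54 to 6.16), while MEF-3F gave no call for either gene, with log2 ratios of -0.26 for Eno1 and -0.48 for Eno2 over MEF; in PC-2F it was 13.0-fold below PC (3.28 to 113), with 2 UMIs.

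Neuronal markers were read beside the Eno2 level of MEF-2F. Of 6 of them, Rbfox3, Snap25, Dcx and Elavl4 were at 0 in all libraries but pOPC, where the 6 summed to 255 CPM, and MEF-2F had only Tubb3, at 21.8 CPM.

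Pyruvate and lactate are interconverted by lactate dehydrogenase, and its 2 genes came to similar levels in both fibroblast-derived libraries. Ldha (chr7:46841475-46855627, plus strand) was at 623 CPM in pOPC, 981 in PC, 816 in PC-2F, 545 in PC-3F, 1015 in MEF, 369 in MEF-3F and 235 in MEF-2F. Ldhb (chr6:142490249-142507957, minus strand) was at 111 CPM (86.3 to 139.9) in pOPC, 15.5 CPM (9.46 to 23.9) in PC, 54.2 CPM (41.8 to 69.1) in PC-2F, 102 CPM (79.0 to 131) in PC-3F, 78.5 CPM (60.2 to 101) in MEF, 437 CPM (378 to 501) in MEF-3F and 235 CPM (177 to 307) in MEF-2F. The fibroblast-derived libraries exceeded pOPC in Ldhb and fell short of it in Ldha, while PC-3F lay at the pOPC level of Ldhb. Ldha was lower than in MEF by 4.32-fold (3.28 to 5.80) in MEF-2F and by 2.75-fold (2.33 to 3.27) in MEF-3F, and not 2-fold from the donor in the pericyte series. Ldhb was higher than the donor by 2.99-fold (2.04 to 4.38) in MEF-2F, 5.56-fold (4.16 to 7.52) in MEF-3F, 3.5-fold (2.09 to 6.11) in PC-2F and 6.62-fold (3.96 to 11.5) in PC-3F.

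The Ldhb share of the lactate dehydrogenase UMIs was 15.1% (12 to 18.7) in pOPC, 7.18% (5.55 to 9.12) in MEF and 1.55% (0.951 to 2.39) in PC. It reached 50% (40.2 to 59.8) in MEF-2F and 54.2% (49.0 to 59.4) in MEF-3F, and was 6.23% (4.84 to 7.87) in PC-2F and 15.8% (12.4 to 19.7) in PC-3F. The summed level of the pair was lowest in MEF-2F, at 470.1 CPM (386 to 568), and highest in MEF, at 1093 CPM (1021 to 1169).

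**Figure D3:**
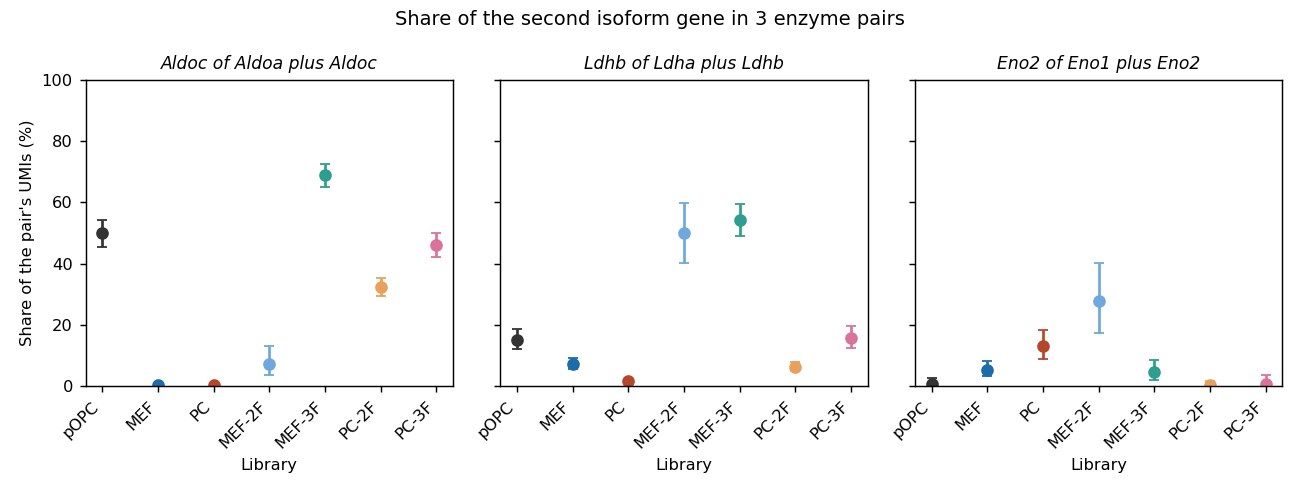
Share of Aldoc in the Aldoa and Aldoc UMIs, of Ldhb in the Ldha and Ldhb UMIs, and of Eno2 in the Eno1 and Eno2 UMIs (y axis, percent) in each library (x axis); bars are exact 95% binomial intervals for counting error. Aldoc is at 0.270% and 0.36% in the donors and between 7.35% and 68.8% in the converted libraries, Ldhb reaches 50% and 54.2% only in MEF-2F and MEF-3F of these 7 libraries, and Eno2 is highest in MEF-2F at 27.7%.

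Lactate leaves or enters through the monocarboxylate transporters. Slc16a1 (MCT1), which oligodendrocytes use to release lactate, was at 72.8 CPM in pOPC, 105 in PC, 44.2 in PC-2F, 42.5 in PC-3F, 16.5 in MEF, 26.2 in MEF-3F and 13.1 in MEF-2F. It was 2.38-fold (1.72 to 3.34) and 2.47-fold (1.63 to 3.89) lower in PC-2F and PC-3F than in PC, and 5.57-fold (1.79 to 28.0) and 2.78-fold (1.45 to 5.76) lower in MEF-2F and MEF-3F than in pOPC. Slc16a3 (MCT4), the exporter of glycolytic cells, had 19.0 CPM in MEF and at most 3.15 CPM in any other library. Pdk1, whose product inhibits pyruvate dehydrogenase in the mitochondrion, was at most 30.6 CPM. It was 12.9-fold higher (3.21 to 113) in PC-2F than in PC, from 24 UMIs against 2.

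Of the 9 hypoxia genes, Ndrg1 and the mitophagy receptor gene Bnip3l were each higher than the donor in 3 of 4 libraries, and the collagen prolyl hydroxylase gene P4ha2 was lower in all 4. Ndrg1 (chr15:66929318-66969640, minus strand), a stress-induced gene that Schwann cells and oligodendrocytes also express, had no UMI in pOPC and stood at 4.64 CPM in PC, 31.7 in PC-2F, 15.8 in PC-3F, 13.9 in MEF, 74.2 in MEF-3F and 222 in MEF-2F. The level was 15.9-fold higher (8.20 to 33.9) in MEF-2F and 5.33-fold (2.64 to 11.7) in MEF-3F than in MEF, and 6.83-fold (2.86 to 19.8) in PC-2F than in PC. Against pOPC the bound was at least 6.68-fold higher in PC-2F, 15.6-fold in MEF-3F and 46.8-fold in MEF-2F. Bnip3l was at 49.0 CPM in pOPC, 55.7 in PC, 87.6 in PC-2F, 134 in PC-3F, 48.1 in MEF, 151 in MEF-3F and 100.1 in MEF-2F, so the 3 untransduced libraries lay within 48.1 to 55.7 CPM and all 4 converted ones above them. The ratio to the donor was 2.08-fold (1.18 to 3.58), 3.13-fold (2.08 to 4.78) and 2.40-fold (1.73 to 3.34) in MEF-2F, MEF-3F and PC-3F. Under trimmed-mean scaling that of MEF-2F lost its call, with a log2 ratio of 0.78.

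P4ha1 and P4ha2 encode the catalytic subunits of the enzyme that hydroxylates collagen. P4ha2 (chr11:54100095-54131665) had no UMI in pOPC and 68.9 CPM in PC, 16.7 in PC-2F, 6.30 in PC-3F, 177 in MEF, 32.7 in MEF-3F and 0 in MEF-2F. Relative to the donor it was lower by at least 13.6-fold in MEF-2F, 5.42-fold (3.17 to 9.93) in MEF-3F, 4.13-fold (2.52 to 7.08) in PC-2F and 10.9-fold (4.12 to 41.0) in PC-3F. P4ha1 went a different way, with 33.2 CPM in pOPC, 173 in PC, 190.2 in PC-2F, 213 in PC-3F, 275 in MEF, 105 in MEF-3F and 183 in MEF-2F. All 6 other libraries exceeded pOPC, the converted ones by 3.15-fold (1.85 to 5.55) in MEF-3F to 6.40-fold (4.02 to 10.7) in PC-3F, and only MEF-3F was 2-fold below its donor, by 2.62-fold (1.91 to 3.67). The 8 fibroblast markers, most of them matrix genes, summed to 6.33 CPM in pOPC, 4299.8 in PC, 10124 in PC-2F, 15015 in PC-3F, 22126 in MEF, 7442 in MEF-3F and 13345 in MEF-2F; their part in the P4ha1 and P4ha2 levels was not tested.

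The oxygen sensor Egln1 (PHD2), which marks HIF-α for destruction, was at 229 CPM in pOPC, 139 in PC, 180.2 in PC-2F, 148 in PC-3F, 132 in MEF, 78.6 in MEF-3F and 126 in MEF-2F. It was highest in pOPC, and 2.92-fold lower (2.01 to 4.33) in MEF-3F than there. The inducible Egln3 did not pass 6.55 CPM in any library. Bnip3, the close relative of Bnip3l, ranged from 8.71 CPM in MEF-2F to 56.8 CPM in MEF-3F and was lower than the donor in MEF-2F, on 2 UMIs. Ddit4 (19.6 to 64.6 CPM), an inhibitor of mTORC1 signalling, and Higd1a (29.4 to 69.6 CPM), a mitochondrial protein gene, gave no call against a donor.

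Against the primary progenitors 3 to 5 hypoxia genes were higher in each converted library, and so were 4 of 7 measured ones in MEF and 3 of 7 in PC, with median log2 ratios of 1.09 and 0.67. MEF-2F against pOPC gave 6 of 23 measured genes higher (26.1%) and 7 lower (30.4%), against 18.3% and 24.9% of all measured genes. MEF-3F had 9 of 25 higher (36.0%) and 4 lower (16.0%), against 19.9% and 19.5%; PC-2F had 6 of 25 higher (24.0%) and 2 lower (8.0%), against 19.8% and 21.1%. In PC-3F 6 of 23 were higher (26.1%) and 1 lower (4.35%), against 19.0% and 21.8%. Of the measured hypoxia genes 3 of 7, 3 of 6, 4 of 6 and 5 of 8 were higher than in pOPC in PC-2F, PC-3F, MEF-2F and MEF-3F, and Egln1 in MEF-3F was the 1 lower call. Their median log2 ratios were, in that order of libraries, 0.88, 1.18, 1.09 and 1.62, against -0.20, -0.22, -0.32 and -0.07 for all measured genes; all 4 share the pOPC library. For the glycolytic enzymes the medians were -0.15, -0.19, -0.90 and -0.06. Trimmed-mean scaling moved these log2 ratios by 0.26, 0.23, 0.07 and 0.04, and under it PC-2F had 10 genes higher than pOPC and 1 lower.

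The donors themselves differed from pOPC in these genes. MEF had 8 of 24 genes higher (33.3%) and 3 lower (12.5%) than pOPC, against 19.5% and 32.3% of all measured genes, and PC had 8 of 26 higher (30.8%) and 5 lower (19.2%), against 20.6% and 27.8%. Higher in both were Aldoa, Tpi1, Eno2, Bnip3, P4ha1 and P4ha2, and lower in both were Aldoc and Pfkm. P4ha1, at 5.50-fold (3.19 to 9.78) in MEF-2F and 5.73-fold (3.66 to 9.43) in PC-2F over pOPC, was not 2-fold from its donor in either.

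The libraries with and without the Nkx6.2 virus were also set side by side. MEF-3F against MEF-2F gave 4 of 23 genes higher (17.4%) and 2 lower (8.70%), against 9.36% and 7.01% of all measured genes. Aldoc was 21.8-fold higher (11.7 to 45.7), Pgk1 and Bnip3 (6.52-fold, 1.63 to 56.7) were higher too, and P4ha2 was at least 2.51-fold higher. P4ha2 was at 88.6 CPM (38.2 to 175) in the first MEF-3F block and 19.0 CPM (7.65 to 39.2) in the second. The second value is near the 13.1 CPM that 3 UMIs are in MEF-2F. Ndrg1 was 2.99-fold lower (1.90 to 4.76) and Eno2 4.49-fold lower (1.86 to 11.9). For both genes the first barcode block of MEF-3F, at 210.4 CPM of Ndrg1 and 77.5 CPM of Eno2, was near whole MEF-2F, at 222 and 78.3 CPM, and the second block, at 40.8 and 2.72 CPM, was below it. PC-3F against PC-2F gave 0 of 23 in either direction, against 5.08% higher and 5.98% lower of all measured genes, and its log2 ratios ran from -0.96 to 0.93. Whether the fibroblast and pericyte series differ in this was not tested.

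In MEF-2F, MEF-3F and PC the barcodes fall into 2 blocks, whose origin the labels do not explain, and some of these genes differed between the blocks of 1 library. In MEF-2F Ndrg1 was at 133 CPM (85.0 to 197) in the first block (65 cells) and 554 CPM (365 to 805) in the second (17 cells), while the intervals of Aldoc, at 55.3 CPM (26.5 to 102) and 0 (0 to 75.6), overlapped. In MEF-3F Aldoc was at 399 CPM (279 to 552) in the first block (40 cells) and 1082 CPM (979 to 1194) in the second (121 cells), Ndrg1 at 210.4 CPM (127 to 329) and 40.8 CPM (22.8 to 67.3), and Eno2 at 77.5 CPM (31.2 to 159.7) and 2.72 CPM (0.0688 to 15.2). The enzyme sum was also higher in the second block of MEF-3F, at 2524 CPM (2207 to 2874) and 4207 CPM (3999.5 to 4422). Against MEF, Ndrg1 remained higher in each block of both libraries, with log2 ratios of 3.22 and 5.27 in MEF-2F and 3.89 and 1.53 in MEF-3F, and Aldoc remained higher in each block of MEF-3F, with 7.0 and 8.42. With the second MEF-2F block alone the calls of Hk2, Pfkm, Aldoc, Gapdh, Ldhb, Bnip3 and Bnip3l were lost at its 48772 UMIs. With the first block alone Eno1 (log2 ratio -0.88) and Eno2 (1.16) lost theirs. In MEF-3F, Pfkp, Pfkm and P4ha2 lost their calls with the first block alone and Tpi1 with the second.

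The summed level of Schwann cell genes differed between the blocks in the same direction as Ndrg1. A list of 8 such genes, put together after the block values were seen, summed to 1984 CPM (1784 to 2199.9) in the first and 2850.0 CPM (2396 to 3365) in the second block of MEF-2F and to 2436 CPM (2125 to 2779.9) and 1555 CPM (1431 to 1688) in those of MEF-3F. Of these, the neurotrophin receptor gene Ngfr was at 282 and 615 CPM in MEF-2F and at 321 and 5.44 CPM in MEF-3F. The list includes the transduced Sox10, which in MEF-3F was at 188 and 258 CPM. For the astrocyte list the intervals of the blocks overlapped in both libraries. It summed in MEF-2F to 149 CPM (98.3 to 217) and 61.5 CPM (12.7 to 179.8), and in MEF-3F to 166 CPM (93.0 to 274) and 245 CPM (197 to 301). Most of this was Slc1a3, at 166 and 201 CPM in the MEF-3F blocks. Only 1 of the 5 markers had UMIs in the first MEF-3F block, and 4 had UMIs in the second, at 90317 and 367758 UMIs. Whole pOPC, MEF and PC libraries summed to 761, 59.5 and 176 CPM for the Schwann list. Sox10, which progenitors also express, held 592, 12.7 and 0 CPM of these, and Ngfr had no UMI in pOPC or PC. The sums of whole PC-2F, PC-3F, MEF-2F and MEF-3F were 2225, 2749, 2168 and 1729 CPM. PC-3F had the highest sum, but only 5 of the 8 genes had UMIs there, with Ngfr, Cdh19 and Foxd3 at 0. In MEF-2F 7 of the 8 had UMIs, and Ngfr was at 353 CPM. Ndrg1 was at 15.8 CPM in PC-3F and 222 CPM in MEF-2F. The part of Schwann-like or astrocyte-like cells in the Ndrg1, Eno2 and Aldoc levels was not tested. In PC the first block (39 cells) had no Pgk1 UMI and Eno1 at 68.9 CPM (34.4 to 123), against 42.4 and 156 CPM in the second. With the first block alone as the donor Hk2, Pfkp, Eno2, Ldhb, Pdk1 and Ndrg1 lost their calls in PC-2F and Hk1, Hk2, Pfkp and Eno2 lost theirs in PC-3F. Of these, Pfkp and Eno2 kept log2 ratios of -2.29 and -3.76 in PC-2F, on 7 and 4 donor UMIs. Hk2 in PC-2F lost its call with the second PC block alone as well, at -0.95.

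**Figure D4:**
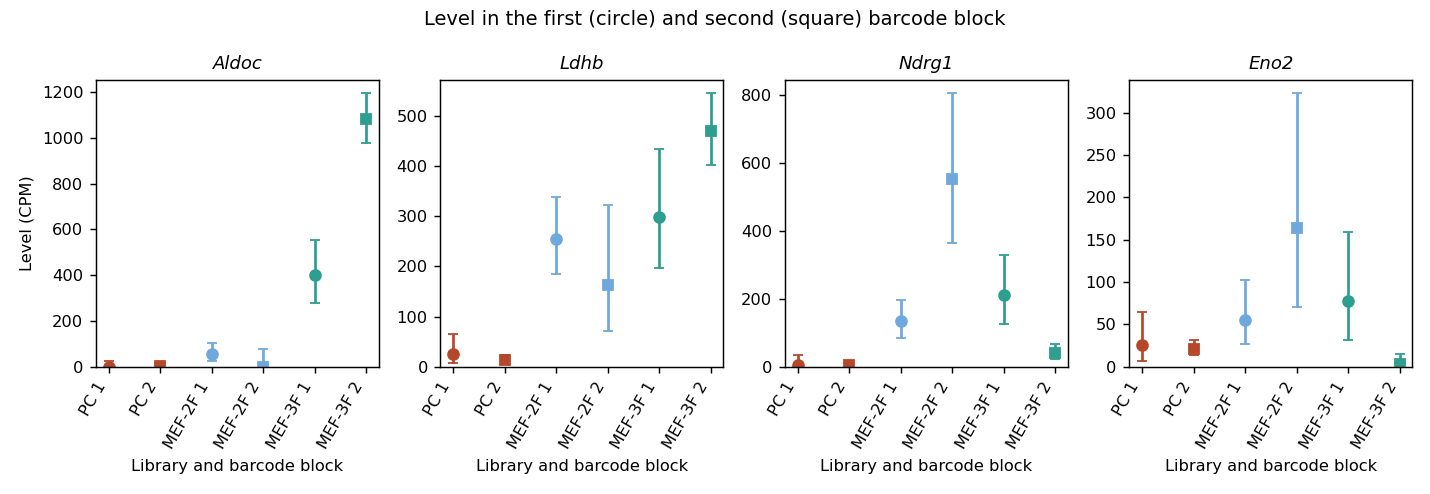
Level in CPM (y axis, from 0) of Aldoc, Ldhb, Ndrg1 and Eno2 in the first (circles) and second (squares) barcode block of PC, MEF-2F and MEF-3F (x axis), with exact 95% Poisson intervals for counting error. In MEF-3F Aldoc is at 399 and 1082 CPM and Ndrg1 at 210.4 and 40.8 CPM, and in MEF-2F Ndrg1 is at 133 and 554 CPM.

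Single cells varied most in PC-2F. With cells thinned to 1000 UMIs, the glycolytic enzymes took a median of 0.30% of the UMIs of a cell in pOPC, PC-2F and PC-3F, 0.40% in MEF, PC and MEF-3F and 0.20% in MEF-2F. The highest cell was at 2.10% in PC-2F and 2.00% in MEF-3F, against 0.60% to 1.4% in the other 5. The variance of the counts per cell divided by their mean, which is 1 for counting noise alone, was 0.940 in pOPC, 1.52 in PC, 2.96 in PC-2F, 1.56 in PC-3F, 1.35 in MEF, 2.13 in MEF-3F and 1.08 in MEF-2F. No enzyme UMI was seen in 9.55% of thinned PC-2F, 9.33% of MEF-2F and 8.22% of PC-3F cells, and in 1.55% to 5.74% in the other 4 libraries. For the hypoxia genes the same ratio stayed between 0.937 and 1.34. Cells are not replicates, and these values describe each library on its own.

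**Figure D5:**
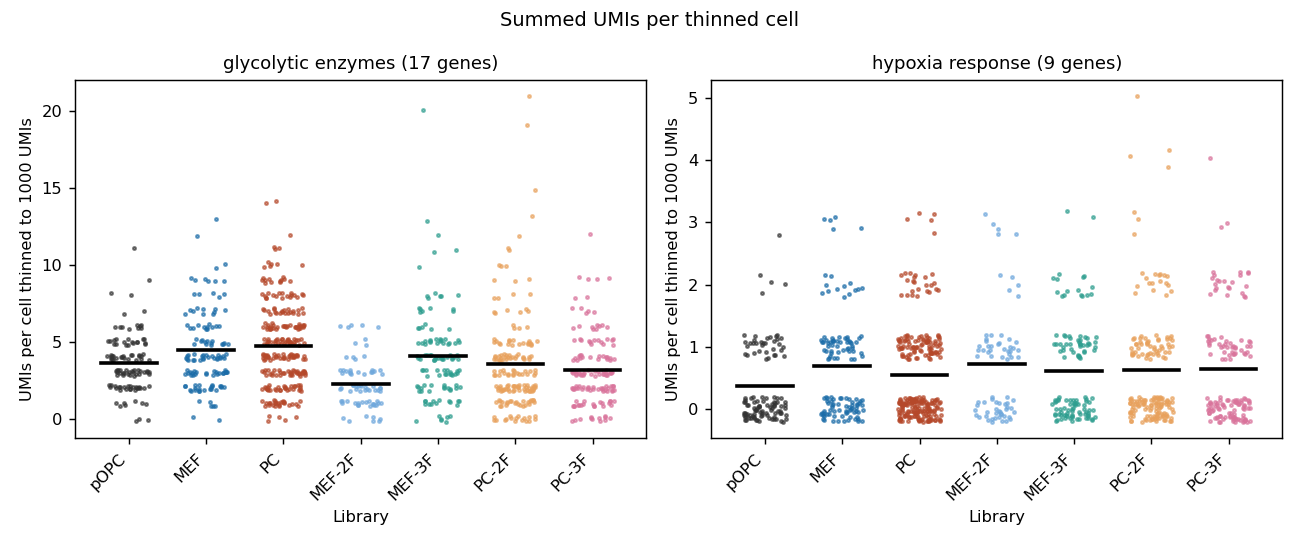
Summed UMIs of the 17 glycolytic enzymes (left) and the 9 hypoxia genes (right) per cell thinned to 1000 UMIs (y axis), by library (x axis). Each dot is a cell, shifted a little at random so that dots do not hide each other, and bars are means. The enzyme mean is lowest in MEF-2F at 2.27 UMIs and highest in PC at 4.72, and PC-2F holds the highest cell.

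Cells with and without a UMI of the transduced Sox10 were compared within each converted library. After thinning, 34 PC-2F, 32 PC-3F, 8 MEF-2F and 21 MEF-3F cells had such a UMI and 144, 114, 67 and 101 had none, and a cell without one may still express the gene. Per 10000 UMIs the enzymes were at 22.5 (13.3 to 35.6) with and 22.7 (19.2 to 26.6) without a Sox10 UMI in MEF-2F, and at 35.2 (27.7 to 44.2) and 42.0 (38.1 to 46.2) in MEF-3F. In PC-2F the values were 41.8 (35.2 to 49.2) and 34.1 (31.1 to 37.3), and in PC-3F 26.6 (21.2 to 32.8) and 33.5 (30.2 to 37.0). Aldoc was at 8.10 (4.72 to 13.0) and 11.1 (9.13 to 13.3) in MEF-3F and at 6.25 (3.82 to 9.65) and 5.35 (4.09 to 6.87) in PC-3F. In each of these pairs the intervals overlapped. Over all 32 genes and the 4 libraries they did not overlap in 2 of 128 pairs, both in PC-2F: Gpi1 was at 3.82 (2.04 to 6.54) with and 0.833 (0.431 to 1.46) without a Sox10 UMI, and Slc2a1 at 2.06 (0.828 to 4.24) and 0.347 (0.113 to 0.810). How often the intervals of all other genes failed to overlap was not computed, so these 2 genes cannot be said to stand out. The fibroblast markers were at 65.0 (48.5 to 85.2) with and 140.0 (131 to 149) without in MEF-2F and at 89.4 (79.6 to 100) and 112 (106 to 117) in PC-2F. Their intervals overlapped in MEF-3F, at 58.1 (48.2 to 69.4) and 74.0 (68.8 to 79.5), and in PC-3F, at 141 (128 to 155) and 157 (150.2 to 165). The part of these markers in the values above was not tested.

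Genes around the module were read from lists of the HIF pathway, of energy metabolism and of the branches of glycolysis, and their counts stand against the shares of all genes given above for the same comparisons. Hif1a, the HIF-1α gene, was between 170.3 and 246 CPM in all 7 libraries and was not called in any comparison with a donor. Epas1, which encodes HIF-2α, had no UMI in pOPC or PC and was at 99.3 CPM in PC-2F, 230.0 in PC-3F, 10.1 in MEF, 8.73 in MEF-3F and 56.6 in MEF-2F. Vhl, whose product ubiquitinates HIF-α, was at 17.8 CPM in PC and at 69.2 and 72.5 CPM in PC-2F and PC-3F. Of 21 further HIF targets 3 of 12 measured were higher and 7 lower in MEF-2F than in MEF, against 19.0% and 14.6% of all genes, and 3 and 3 of 12 in MEF-3F, against 23.6% and 12.7%. In the pericyte series 4 and 4 of 14 were called in PC-2F, against 17.7% and 12.8%, and 3 and 4 of 15 in PC-3F, against 18.8% and 15%. The collagen cross-linking gene Loxl2 was at 246 CPM in MEF and 0 in both libraries converted from it, and Vegfa at 81.1 CPM in MEF and 4.35 CPM in MEF-2F. Plod2, a lysyl hydroxylase gene, was at 65.8 CPM in PC and at 448 and 317 CPM in PC-2F and PC-3F.

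Of 20 measured genes of oxidative phosphorylation, 3 were lower and none higher in MEF-2F than in MEF, a lower share near the 14.6% of all genes, 1 was higher and none lower in PC-2F than in PC, and none was called in MEF-3F or PC-3F against the donor. Cox5a, a subunit of cytochrome oxidase, accounted for the largest of these calls, with 115 CPM in MEF and 8.71 CPM in MEF-2F. Of 19 genes of the tricarboxylic acid cycle and its aspartate shuttle 3 were lower in MEF-2F than in MEF, 1 was higher and 1 lower in MEF-3F, 1 higher and 2 lower in PC-2F, and 1 higher and 1 lower in PC-3F, while over the 4 comparisons the all-gene shares ran from 17.7% to 23.6% higher and from 12.7% to 15% lower. Pyruvate carboxylase (Pcx), which feeds that cycle with oxaloacetate, was at 21.7 CPM in PC, 153 in PC-2F and 67.7 in PC-3F. Bpgm, a bisphosphoglycerate mutase gene, was at 18.6 CPM in PC and at 105 and 75.6 CPM in PC-2F and PC-3F, with 199 CPM in pOPC. In the pentose phosphate branch Taldo1 was at 120.3 CPM in MEF and 343 CPM in MEF-3F, and G6pdx at 176 CPM in PC and 69.3 CPM in PC-3F.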

How the data were processed

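Per the labels' protocols, 3′ ends were barcoded with UMIs after capture of single cells in ddSEQ droplets. Tools listed in the submitters' processing notes were STAR 2.5.3a, featureCounts 1.6.1, UMI-tools 0.5.3 and bcl2fastq 2.19.1.403, with the mm10 genome. The values the authors deposited are of another kind than UMI counts, which the plan had assumed: they were read as the place of a UMI count, from 0, in the text-sorted list of occurring counts, separately for each barcode block. No label states this, and every level rests on it. Counts were recovered as the jointly most probable list; on simulated data, which assume this reading, over 99% of non-zero values came back exactly and no member's sum was off. Barcodes below 500 UMIs or at 20% mitochondrial UMIs and above were dropped, which left 1124 of 1140, and no doublet caller was run. A gene with no row in a library was taken as 0 UMIs. Log2 ratios add 0.5 UMIs, and a gene at 0 is given as a bound at 3 UMIs per library. The genes and lists were chosen with earlier results of these data known. Levels in all 7 libraries are given for genes that reach 100 CPM in any and for Eno2, the others by range. Of the further lists, a few called genes are named, some chosen after their values were seen, as were the blocks' Schwann list and the genes' order of presentation. Some genes of that Schwann list are not reported here and were left out of its sums. Mural, endothelial, macrophage, neuron, astrocyte and erythroid markers were checked; endothelial markers summed to at most 34.1 CPM and erythroid ones to at most 0.774 CPM in any library. Alternatives covered thinning, cell filters, equal weight per cell, trimmed-mean scaling, added CPM, a stricter level and single blocks. Python 3.11.15, numpy 2.4.6, scipy 1.17.1 and pandas 2.3.3 were used.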

Additional observations from a re-analysis of the deposited data

Results flagged for a closer look

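Eno1 and Eno2 differed in direction between MEF-2F and PC-2F, each against its donor. The log2 ratio of Eno1 was -1.13 in MEF-2F over MEF and 1.31 in PC-2F over PC, and that of Eno2 was 1.63 in MEF-2F over MEF and -3.40 in PC-2F over PC. MEF-3F over MEF did not share the MEF-2F pattern, with no call at -0.26 for Eno1 and -0.48 for Eno2, and PC-3F over PC had 0.76 and -3.22. With 1 library per population the difference was not tested. Eno1 shares most of its 3′ end with Eno1b, and both Eno1 and Eno2 lost their call in MEF-2F when only its first barcode block was used.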

How the results depend on the processing

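Alternatives were computed for 16 counts of called genes, 51 called ratios and, for 4 of the settings only, 21 isoform shares; single blocks were used only where a library of the comparison has 2. Of 184 alternative counts 152 lay within 1.5 times the reported one and 32 did not; of 612 ratios 535 held their call, 77 lost it and 0 reversed; of 84 shares 81 moved by less than their interval. With cells thinned to 1000 UMIs, which leaves fewer UMIs, MEF-2F against MEF gave 2 higher and 5 lower, MEF-3F 4 lower, and PC-2F against PC 3 higher; against pOPC, MEF-2F gave 2 and 3, MEF-3F 1 lower, and PC-2F 2 and 1. A minimum of 100 CPM, which leaves fewer genes, gave 3 higher in MEF-2F, 2 higher and 2 lower in PC-2F and 3 lower in PC-3F against the donor; against pOPC it gave 2 higher and 1 lower in PC-2F, 3 higher and 0 lower in PC-3F, 4 lower in MEF-2F and 5 higher and 1 lower in MEF-3F. The second MEF-2F block alone gave 2 higher against MEF and 2 against pOPC, and the first MEF-3F block 4 higher against pOPC. The first PC block alone as donor gave 4 lower in PC-2F and 8 higher and 4 lower in PC-3F. Trimmed-mean scaling gave 10 higher and 1 lower in PC-2F against pOPC, and 5 CPM added gave 1 lower there. Cells with at least 1000 UMIs gave 2 lower in PC-3F against pOPC. Equal weight per cell gave 7 higher in PC-3F against PC and 4 lower against pOPC, and shares of 73.6% (Aldoc, MEF-3F), 50.9% (Aldoc, PC-3F) and 60.7% (Ldhb, MEF-3F); beyond the fewer UMIs or genes named, the cause was not tested. The enzymes' median log2 ratio in MEF-2F over MEF was -1.13, and -0.88 with Hk2 at its bound. Calls of single genes lost under scaling, added CPM, a stricter cell filter or equal weight were those of Hk2, Aldoc, Eno1 and Bnip3l in MEF-2F, Tpi1 and P4ha1 in MEF-3F, Slc16a1, Pdk1 and Hk2 in PC-2F and Pfkm in PC-3F. No paired analysis was possible because each population was 1 library. Depth limits low genes most in MEF-2F, where 3 UMIs are 13.1 CPM.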
